A study of Rattus norvegicus with 22 samples.

Results

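The phospholipase A2 family was followed here through 9 genes, which were chosen by the gene name that the array files give each probe. These were 9 of the 19167 gene symbols on the array, and each had 1 probe. They fall into 3 cytosolic enzymes (Pla2g4a, Pla2g4b and Pla2g4e), 4 secreted enzymes (Pla2g2a, Pla2g2e, Pla2g5 and Pla2g12a), the calcium-independent enzyme Pla2g6, and Pla2g7, the secreted acetylhydrolase of platelet-activating factor (PAF). Pla2g6 and Pla2g7 were kept apart from both classes.

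RNA was measured in 11 pairs of tongue tissue from male F344 rats, an inbred strain, at an age that the labels give as about 33 weeks in both groups. Every rat was given 4-NQO (4-nitroquinoline-1-oxide, a carcinogen that induces tumors of the tongue) in its drinking water, 20 ppm over 10 weeks, and was harvested 23 to 26 weeks after the first exposure. The OSCC group (oral squamous cell carcinoma) holds 11 lesions, and the normal group holds 11 phenotypically normal pieces from adjacent tongue of the same rats, so the normal group had been exposed to the carcinogen as well. The titles of all 22 arrays nonetheless carry the word untreated, and only the lesion samples name 4-NQO in their tissue label.

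Phospholipases A2 release a fatty acid, often arachidonic acid, and a lysophospholipid from the middle carbon of membrane phospholipids. Cytosolic enzymes of group IV are moved to membranes by calcium and, in the case of Pla2g4a, supply arachidonate to cyclooxygenases and lipoxygenases. Secreted enzymes are small, disulfide-rich proteins that act outside the cell or on its surface, while Pla2g6 works inside the cell without calcium and Pla2g7 inactivates PAF in plasma and tissue fluid.

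The probes are the only stretch of each transcript that was measured, so those of the cytosolic members and of the chromosome 5 pair Pla2g2a and Pla2g2e are shown, in the sense direction and wholly in lower case. In the rn4 build that the files use, the Pla2g4a probe lies at chr13:64146152-64146211 on the minus strand, and the Pla2g4e probe at chr3:106671003-106671062 on the minus strand. The Pla2g4b probe spans chr3:106546543-106546759 on the plus strand, 217 bases of genome for 60 bases of probe, so it crosses at least 1 splice junction. The Pla2g2a probe lies at chr5:157657033-157657092 and the Pla2g2e probe at chr5:157704613-157704672, both on the plus strand.
Pla2g4a: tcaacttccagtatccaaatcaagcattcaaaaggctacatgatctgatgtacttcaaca
Pla2g4b: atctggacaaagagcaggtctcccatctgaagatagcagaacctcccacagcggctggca
Pla2g4e: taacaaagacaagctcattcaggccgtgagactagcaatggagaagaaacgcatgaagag
Pla2g2a: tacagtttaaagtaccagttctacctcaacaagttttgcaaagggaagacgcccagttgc
Pla2g2e: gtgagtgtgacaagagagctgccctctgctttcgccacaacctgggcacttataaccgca
Over the 36 pairs of member probes, the longest run of bases that any pair shared was 7 of 60. In RefSeq's GRCr8 annotation, Pla2g4b (chr3:127458022-127467637) and Pla2g4e (chr3:127586318-127652369) are neighbors in a cluster with Pla2g4d and Pla2g4f, and Pla2g4a stands alone on chromosome 13. Pla2g2a (chr5:156359725-156362302) lies inside the annotated span of Pla2g5 (chr5:156324628-156393065), in a cluster that also holds Pla2g2c, Pla2g2f, Pla2g2d and Pla2g2e. Pla2g12a is on chromosome 2, Pla2g6 on chromosome 7 and Pla2g7 on chromosome 9.

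Levels are log2 signals minus the 75th percentile of the array, so 0 is the level of a fairly bright probe and 1 unit is a 2-fold step. Levels of different probes are not compared. Between 48.4% and 56.1% of probes were well above background on the normal arrays and between 52.3% and 65.5% on the OSCC arrays. All 9 members were well above background on at least 17 of the 22 arrays, and no member was saturated on any array. All 8 skeletal muscle markers and 7 of 9 stratified epithelium markers were well above background on all 22 arrays, as the tissue label would have it. The OSCC pieces of rats 21, 22 and 24 stood apart, with a summed muscle level 0.25 to 0.68 log2 above that of their own normal pieces, whereas the other 8 rats fell by 1.10 to 4.25. All normal pieces and the OSCC pieces of rats 4 and 9 were scanned on the same day, and the other 9 OSCC pieces on another, so values within those 2 pairs are given beside the results.

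The 3 cytosolic genes were higher in OSCC, 2 of the 4 secreted genes were lower, and the other 4 members passed the fold limit in neither direction. Genes counted as called at an adjusted p under 0.05 (limma, paired by rat, adjusted by Benjamini-Hochberg over all 30367 probes) together with a difference of at least 2-fold. By that rule 5 of 9 members were called, 3 higher and 2 lower, against 14.7% of all 19167 symbols (7.48% called higher and 7.24% called lower). The median log2 difference of all symbols was -0.21, and that of the 9 members was 0.56. With adjusted p below 0.05 at any fold, the count was 7 of 9 members, against 45.0% of all symbols. In 0 of 9 members did every OSCC array lie on 1 side of every normal array, which held for 1.66% of all symbols.

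Pla2g4e, a group IV enzyme that also makes N-acylphosphatidylethanolamines as an N-acyltransferase, had the largest mean difference of the members (with normexp background correction Pla2g4b came first, at 1.40 against 1.39 log2). Its level in normal tissue ranged from -4.61 to -1.83 with a median of -3.51, and in OSCC from -4.45 to 0.61 with a median of -0.62. The OSCC level was above the highest normal level in 8 of 11 rats, and the OSCC pieces of rats 17, 22 and 24 lay below that level, which was the normal piece of rat 16. The OSCC piece of rat 24 was the lowest of its group and the only one below its own normal piece. The mean log2 difference was 2.42 ± 0.367 (SE, n = 11 pairs), a 5.35-fold rise (limma adjusted p = 0.000632), and it was positive in 10 of 11 rats. All 11 OSCC arrays and 8 of 11 normal arrays measured the probe well above background.

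Pla2g4b, a group IV paralog with phospholipase and lysophospholipase activity, followed. Normal levels ran from -2.40 to 0.01 with a median of -1.48, and OSCC levels from -2.15 to 2.28 with a median of 0.07. The highest normal piece was that of rat 16, whose OSCC piece differed from it by 0.06 log2, and rat 24 was again the exception with a difference of -0.41. The mean difference was 1.74 ± 0.318 log2 (SE, n = 11 pairs), a 3.34-fold rise (limma adjusted p = 0.00161), with 10 of 11 rats higher. Within single rats Pla2g4e rose further than Pla2g4b in 9 of 11, by 0.68 ± 0.617 log2 on average (SD, n = 11), little more than the spread between rats.

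Pla2g4a, the calcium-regulated enzyme that frees arachidonate for prostaglandin and leukotriene synthesis, had the tightest normal levels of the class. They ran from -2.17 to -1.49 with a median of -1.89, against -1.87 to 0.24 with a median of -0.68 in OSCC. In 9 of 11 rats the OSCC piece was above every normal piece, and the others were rats 22 and 24, at -0.05 and -0.16 log2 from their own normal tissue. The mean difference of 1.03 ± 0.197 log2 (SE, n = 11 pairs) was a 2.04-fold rise (limma adjusted p = 0.00202), just inside the fold limit. It fell under that limit when arrays were scaled to their median (0.83), by quantile normalization (0.97) and with normexp background correction (0.73), with adjusted p at most 0.00983 in these settings. It also fell under the limit without rat 11, 13, 16 or 25 (0.95 to 0.998).

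**Figure D1:**
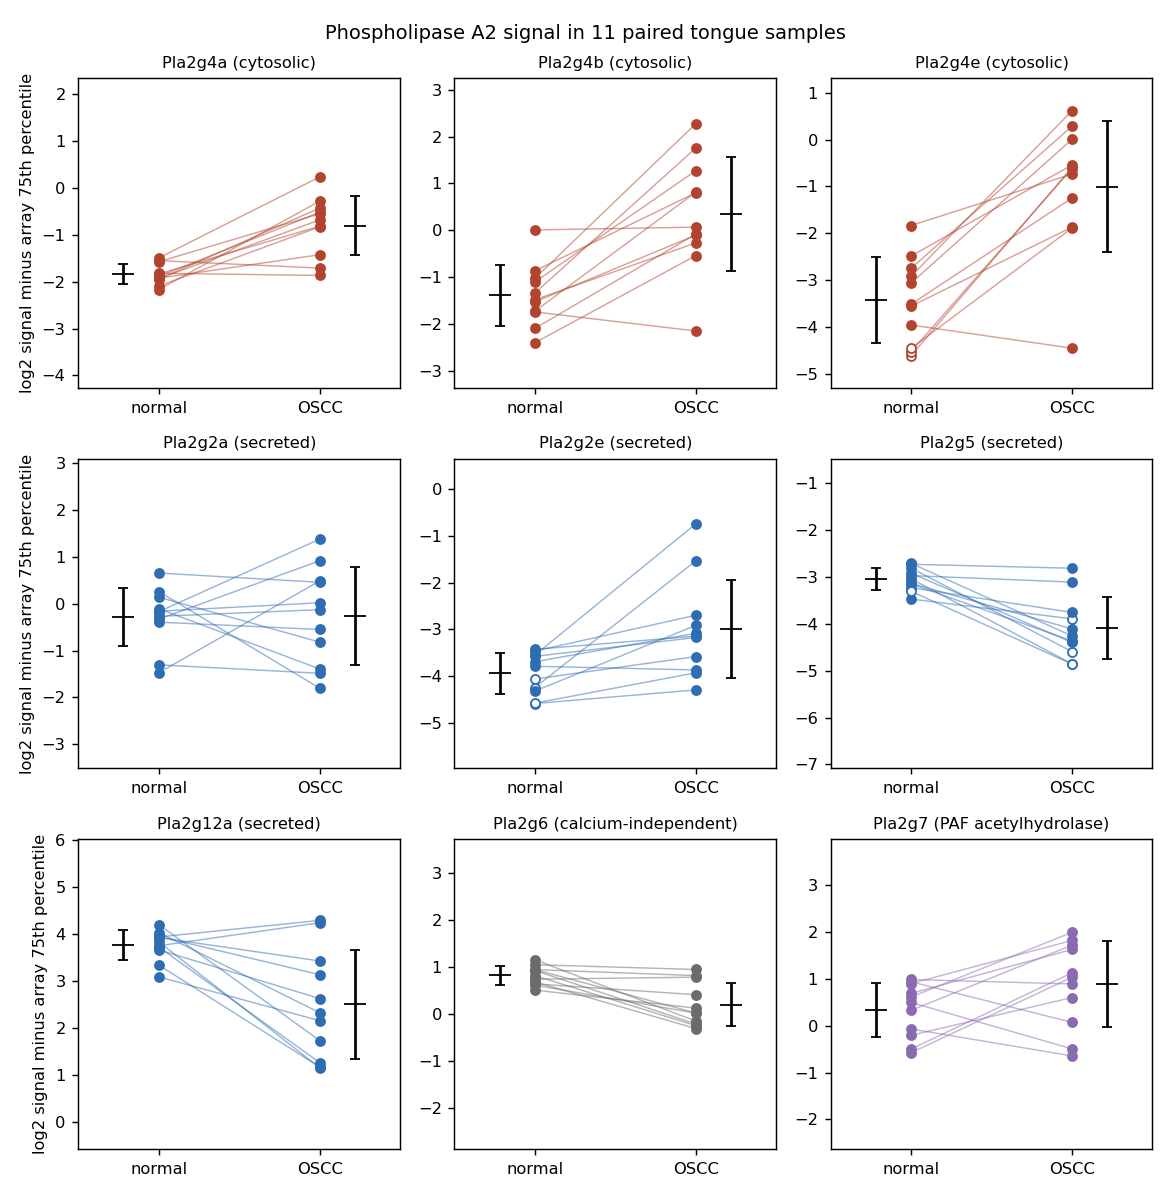
Level of each member (y axis, log2 signal minus the array's 75th percentile) in normal and OSCC pieces, with a line for each of 11 rats. Filled points were well above background and open points were not, and black bars are the mean and SD. The y axes are shifted between panels but span the same range, and the 3 cytosolic panels rise in at least 9 of 11 rats while Pla2g5 falls in all 11.

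The secreted members did not move together. Pla2g12a, an atypical secreted enzyme with weak phospholipase activity and broad expression that includes muscle, was lower in OSCC. Its normal levels ran from 3.08 to 4.20 with a median of 3.83, and its OSCC levels from 1.14 to 4.29 with a median of 2.32. In 7 of 11 rats the OSCC piece was below every normal piece, but in rats 22 and 24 it was above every normal piece. The mean difference was -1.27 ± 0.311 log2 (SE, n = 11 pairs), or 0.415 times the normal signal (limma adjusted p = 0.00787), with 9 of 11 rats lower.

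Pla2g5, a secreted enzyme of heart, airway and macrophages that hydrolyzes phosphatidylcholine, was lower in OSCC in all 11 rats. Normal levels ran from -3.47 to -2.71 with a median of -3.04, and OSCC levels from -4.86 to -2.82 with a median of -4.26. Rats 21 and 22 had the smallest differences, -0.08 and -0.14, and the groups overlapped only through their OSCC pieces. The mean difference was -1.05 ± 0.192 log2 (SE, n = 11 pairs), or 0.484 times normal (limma adjusted p = 0.00163). The probe is dim, above background with confidence on 10 of the normal and 7 of the OSCC arrays, and with normexp background correction the difference was -0.25 with an adjusted p of 0.879. It was also under the fold limit with the 75th percentile taken over probes well above background on all arrays (-0.96), within the pairs scanned on different days (-0.97) and without rat 9, 11, 13 or 26 (-0.97 to -0.998).

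Pla2g2e, a group II enzyme with expression in skin and hair follicles, had an adjusted p below 0.05 but differed by less than 2-fold. Normal levels ran from -4.58 to -3.42 with a median of -3.79, and OSCC levels from -4.29 to -0.75 with a median of -3.14. Rats 9 and 17 stood out, with differences of 2.70 and 2.80 log2, whereas the median rat differed by 0.61. The mean difference was 0.94 ± 0.272 log2 (SE, n = 11 pairs; limma adjusted p = 0.0185), with 10 of 11 rats higher. All 11 OSCC arrays but only 7 normal arrays measured it well above background, and with normexp background correction the difference was 0.18 (adjusted p = 0.971). It passed the fold limit with the 75th percentile over bright probes (1.02) and without rat 4, 13 or 25 (at most 1.04). The mean of the 2 pairs scanned on the same day also passed it (1.31), from -0.08 in rat 4 and 2.70 in rat 9.

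Pla2g2a, the group IIA enzyme of inflammatory fluids and a bactericidal protein, gave no difference that the arrays could resolve. Normal levels ran from -1.47 to 0.65 and OSCC levels from -1.80 to 1.38, with medians of -0.17 and -0.13. The lesions were more spread than the normal pieces (SD 1.04 and 0.623), and the within-rat differences ran from -2.06 in rat 17 to 1.96 in rat 11. The mean difference was 0.02 ± 0.335 log2 (SE, n = 11 pairs; limma adjusted p = 0.962), with 5 rats higher and 6 lower, and its sign changed with the scaling (-0.18 with arrays scaled to their median).

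Pla2g6, the calcium-independent enzyme of phospholipid remodeling and mitochondria, was lower in 10 of 11 rats but by less than 2-fold. Its levels ran from 0.51 to 1.16 in normal tissue and from -0.31 to 0.95 in OSCC, with medians of 0.82 and 0.03, and 8 OSCC pieces lay below every normal piece. The mean difference was -0.62 ± 0.152 log2 (SE, n = 11 pairs; limma adjusted p = 0.00771).

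Pla2g7 ran from -0.58 to 0.98 in normal tissue and from -0.65 to 1.99 in OSCC, with medians of 0.50 and 1.03. The mean difference of 0.56 ± 0.281 log2 (SE, n = 11 pairs) did not pass the test (limma adjusted p = 0.117), with 7 rats higher and 4 lower. Rats 9, 17, 21 and 24 were the lower ones, at -0.10 to -0.99. Without rats 21, 22 and 24 the difference was 0.85 with an adjusted p of 0.0288, still under 2-fold.

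**Figure D2:**
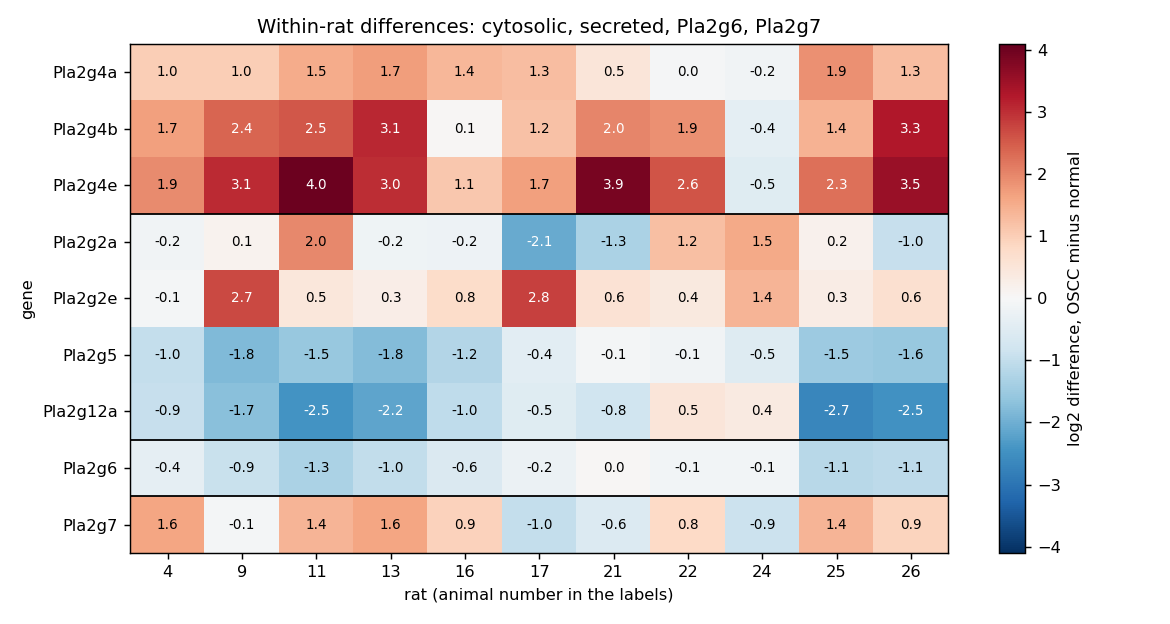
Log2 difference, OSCC minus normal, of each member (rows) in each rat (columns, by animal number), with red for higher and blue for lower in OSCC and the value printed in each cell. Horizontal lines part the cytosolic members, the secreted members, Pla2g6 and Pla2g7. The cytosolic rows are red except in rat 24, in rat 22 for Pla2g4a and faintly in rat 16 for Pla2g4b, and the Pla2g5 row is blue throughout.

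Averaged over its 3 genes, the cytosolic class differed by 1.73 ± 0.915 log2 (SD, n = 11 rats), from -0.35 in rat 24 to 2.70 in rat 26, and was above 0 in 10 of 11 rats. The secreted class, averaged over its 4 genes, differed by -0.34 ± 0.568 log2 (SD, n = 11 rats), from -1.08 in rat 26 to 0.69 in rat 24, and was below 0 in 9 of 11. Cytosolic minus secreted was 2.07 ± 1.38 log2 (SD, n = 11 rats), with a median of 2.32, and it was positive in every rat but rat 24 (-1.05). This gap is a description of 7 chosen genes and was given no test. The cytosolic class leaves out Pla2g4c (-0.57, near background) and Pla2g4f (-0.50), which were not called. The gap did not mean that every cytosolic gene moved above every secreted gene, which held in 4 of 11 rats. All 3 cytosolic genes were higher in 9 rats, and Pla2g5 and Pla2g12a were both lower in 9 rats.

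**Figure D3:**
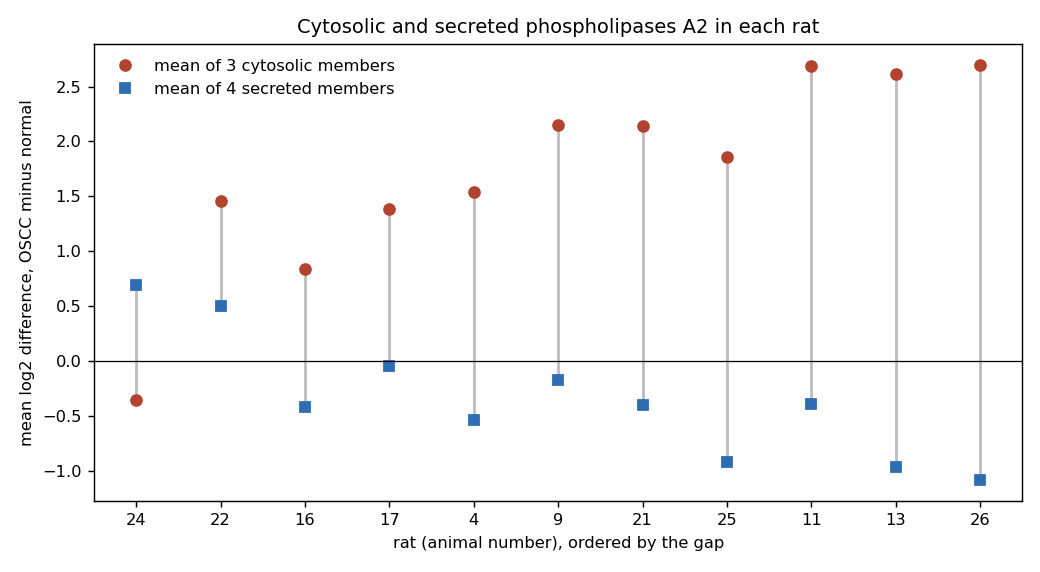
Mean log2 difference, OSCC minus normal, of the 3 cytosolic members (circles) and of the 4 secreted members (squares) in each of 11 rats, ordered from the smallest gap to the largest. The circle lies above the square in 10 rats, and the order is turned in rat 24.

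The order of the 9 mean differences was Pla2g4e, Pla2g4b, Pla2g4a, Pla2g2e, Pla2g7, Pla2g2a, Pla2g6, Pla2g5 and Pla2g12a. Several neighbors in it were not separated by more than their within-rat spread. Pla2g4a and Pla2g2e differed by 0.10 ± 1.24 log2 (SD, n = 11 rats), with Pla2g4a the higher in 6 rats, and Pla2g5 and Pla2g12a by 0.22 ± 0.673 (SD, n = 11 rats). Pla2g5 fell further than Pla2g6 in all 11 rats, by 0.43 ± 0.278 log2 (SD, n = 11 rats). Across the class line, all 3 cytosolic genes were above Pla2g5 in all 11 rats.

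The 5 called members kept their direction in both of the 2 pairs scanned on the same day, which are also part of the whole set. In those pairs the mean log2 differences were 2.50 for Pla2g4e, 2.02 for Pla2g4b, 1.02 for Pla2g4a, -1.32 for Pla2g12a and -1.39 for Pla2g5. In that order rat 4 gave 1.94, 1.67, 1.02, -0.93 and -0.97, and rat 9 gave 3.07, 2.37, 1.02, -1.71 and -1.81. A fit to those 4 arrays alone called these 5 members and Pla2g2e (6 of 9), where 43.7% of all probes were called. That fit gave every member the same standard error, 0.419, so its calls do not reflect the spread of each gene. In the 9 pairs scanned on different days the mean log2 differences were 2.40, 1.68, 1.03, -1.26 and -0.97 in the same order. With scan day as a further term the fit takes its estimate of the tissue difference from the 2 pairs scanned on the same day. No member was called (limma), with adjusted p from 0.0855 for Pla2g5 to 0.224 for Pla2g12a among these 5, and only 3 of all 30367 probes were called (0.00988%). At an unadjusted p below 0.05 that fit left 3 of 9 members, Pla2g4b, Pla2g4e and Pla2g5, about the share of all probes (36.0%). Slides held 1 tissue each, and with slide as a random block the same 5 members were called. With normexp background correction 3 of 9 members were called, against 5.60% of all probes.

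Markers of several cell types moved with the groups, though not of all. A smaller number of cells of a type cannot be told apart from less RNA per cell in these bulk pieces. Of 8 skeletal muscle markers, 6 were called lower and 0 higher, and their summed level ran from 10.4 to 11.4 in normal tissue and from 6.45 to 11.5 in OSCC. Pla2g12a was lowest in the OSCC pieces of rats 25, 13 and 11, which also had the 3 lowest summed muscle levels (6.45 to 7.03). In the OSCC pieces of rats 21, 22 and 24, where muscle was not lower, Pla2g12a differed by -0.82, 0.49 and 0.35 log2 and Pla2g5 by -0.08, -0.14 and -0.53. Without those rats the differences were -1.75 for Pla2g12a (limma adjusted p = 0.000636) and -1.35 for Pla2g5, and the same 5 of 9 members were called, against 22.8% of all probes. The part of muscle in these values was not tested.

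Of 9 stratified epithelium markers, 1 was called higher (Krt10) and 0 lower, and the summed level ran from 8.52 to 10.1 in normal tissue and from 8.08 to 10.3 in OSCC. The summed epithelial level of rat 24 was 0.97 log2 lower in the OSCC piece than in its normal piece, and that was the rat without a rise in any cytosolic gene. Rat 4, in which epithelial markers were also lower (-1.07), had all 3 cytosolic genes higher, with differences of 1.02 to 1.94. Of 8 neutrophil markers, 6 were called higher and 0 lower, with a summed level of -0.41 to 2.23 in normal tissue and 0.75 to 8.63 in OSCC, and Mpo stayed near background on all 22 arrays. The summed neutrophil level was lower in the OSCC piece only in rat 24 (-0.63). Of 10 macrophage markers, 7 were called higher and 0 lower, with summed levels of 4.27 to 5.51 and 4.94 to 6.90. All 7 serous gland markers were called higher (summed -2.24 to 1.52 in normal tissue and 1.34 to 12.6 in OSCC), and the OSCC piece of rat 24 stood at 11.7, next to that of rat 16 and below only that of rat 17. Of 6 T cell markers, 5 were called higher and 0 lower, with summed levels of -0.61 to 1.29 in normal tissue and 0.19 to 2.53 in OSCC. The summed T cell level was lower in the OSCC piece in rats 22 (-0.98) and 24 (-0.20), the same pair of rats in which Pla2g4a was not higher. Of 6 fibroblast markers, 5 were called higher and 0 lower (summed 5.73 to 6.56 in normal tissue and 5.63 to 8.78 in OSCC), and of 5 B and plasma cell markers, 3 were called higher and 0 lower (summed -3.61 to -2.31 and -2.75 to 2.69). All 7 hair and filiform papilla markers were called lower (summed 0.10 to 6.24 in normal tissue and -2.93 to 3.96 in OSCC). Of these, Hoxc13 was near background on all 22 arrays and Dsg4 on every OSCC array. Also called lower were 3 of 8 mast cell markers and 2 of 6 smooth muscle markers. Of 6 endothelium and 6 adipocyte markers, 0 were called in either direction, with median log2 differences of -0.40 and -0.07. What each of these cell types contributes to the phospholipase values was not tested.

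Of 15 other phospholipase A2 genes on the array (7 secreted and 8 intracellular), 0 were called higher and 1 was called lower (6.67%, against 14.7% of all symbols), with a median log2 difference of -0.27. The called gene was Pla2g16, a small acyltransferase and phospholipase of adipose tissue, at -1.36 ± 0.290 log2 (SE, n = 11 pairs; limma adjusted p = 0.00371), lower in 10 of 11 rats. Pla2g4f, in the same chromosome 3 cluster as the risen Pla2g4b and Pla2g4e, differed by -0.50 ± 0.228 log2 (SE, n = 11 pairs; limma adjusted p = 0.0884). In the chromosome 5 cluster, Pla2g2c, Pla2g2d and Pla2g2f differed by -0.77, -0.27 and -0.52, with limma adjusted p of 0.108 to 0.168. The Pla2g2c probe was well above background on only 2 normal arrays and 1 OSCC array, so its difference lies near background. Pla2g1b, Pla2g10, Pla2g12b and Pla2g4c were too dim in normal tissue for any of its 11 arrays to place them well above background.

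Downstream of the lipases, 3 of 8 arachidonate oxygenase genes were called higher and 0 lower. Ptgs2, the inducible cyclooxygenase, was near background on all 11 normal arrays and well above it on 7 of 11 OSCC arrays. Its levels ran from -6.44 to -5.20 in normal tissue and from -6.26 to 1.05 in OSCC, with 10 of 11 rats higher. The mean was at least 3.20-fold higher in OSCC (fitted log2 difference 3.62, limma adjusted p = 0.0028). Here the mean OSCC signal is set against the lowest signal that counted as above background on each normal array, or the probe's own signal where higher. Alox12b, a lipoxygenase of the epidermal barrier, rose by 1.30 ± 0.438 log2 (SE, n = 11 pairs; limma adjusted p = 0.0325). Alox5ap, the protein that presents arachidonate to 5-lipoxygenase in leukocytes, rose by 1.20 ± 0.299 log2 (SE, n = 11 pairs; limma adjusted p = 0.00867).

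Among 7 genes for a receptor, an activator and inhibitors of phospholipases A2, 2 were called higher and 0 lower. Anxa1, an annexin known as an inhibitor of cytosolic phospholipase A2, rose by 1.24 ± 0.265 log2 (SE, n = 11 pairs; limma adjusted p = 0.00372). Scgb1a1, a secretory protein of the airways that also inhibits these enzymes, had a mean at least 8.45-fold higher (limma adjusted p = 0.00447). It was again near background on all normal arrays, and well above it on 8 of 11 OSCC arrays. Of 7 kinases, 1 was called, with Camk2d 1.06 ± 0.183 log2 higher (SE, n = 11 pairs; limma adjusted p = 0.00115) in all 11 rats. At any fold, 4 of the 7 kinases had a limma adjusted p below 0.05, against 45.0% of all symbols. Among them were Mapk3 (0.78 log2) and Mapkapk2 (-0.64 log2), both under 2-fold. Of 7 PAF metabolism genes, 0 were called by limma and 0 by the methods' t-test, with a median of 0.30 and 3 genes at an unadjusted p below 0.05. Of 7 lysophospholipid genes, 0 were called by limma and 0 by the methods' t-test, with a median of -0.01 and 4 genes at an unadjusted p below 0.05.

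Of 11 genes listed for enzymes that put fatty acids back into phospholipids, 3 were called lower and 0 higher. Acsl6 and Acsl1 join coenzyme A to long-chain fatty acids, and Agpat3 is a lysophospholipid acyltransferase. Acsl6 differed by -3.22 ± 0.522 log2 (SE, n = 11 pairs; limma adjusted p = 0.000874), Acsl1 by -1.49 and Agpat3 by -1.20. The median of the 11 genes was nonetheless 0.34, and 7 of the 8 genes that were not called had positive differences. Among those 7 were Acsl4 (0.84 log2, limma adjusted p = 0.00286) and Mboat7 (0.68 log2, limma adjusted p = 0.015), both under 2-fold. Over all 62 non-member genes of these lists, 6 were called higher and 4 lower, or 16.13% in either direction, near the 14.7% of all symbols.

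**Figure D4:**
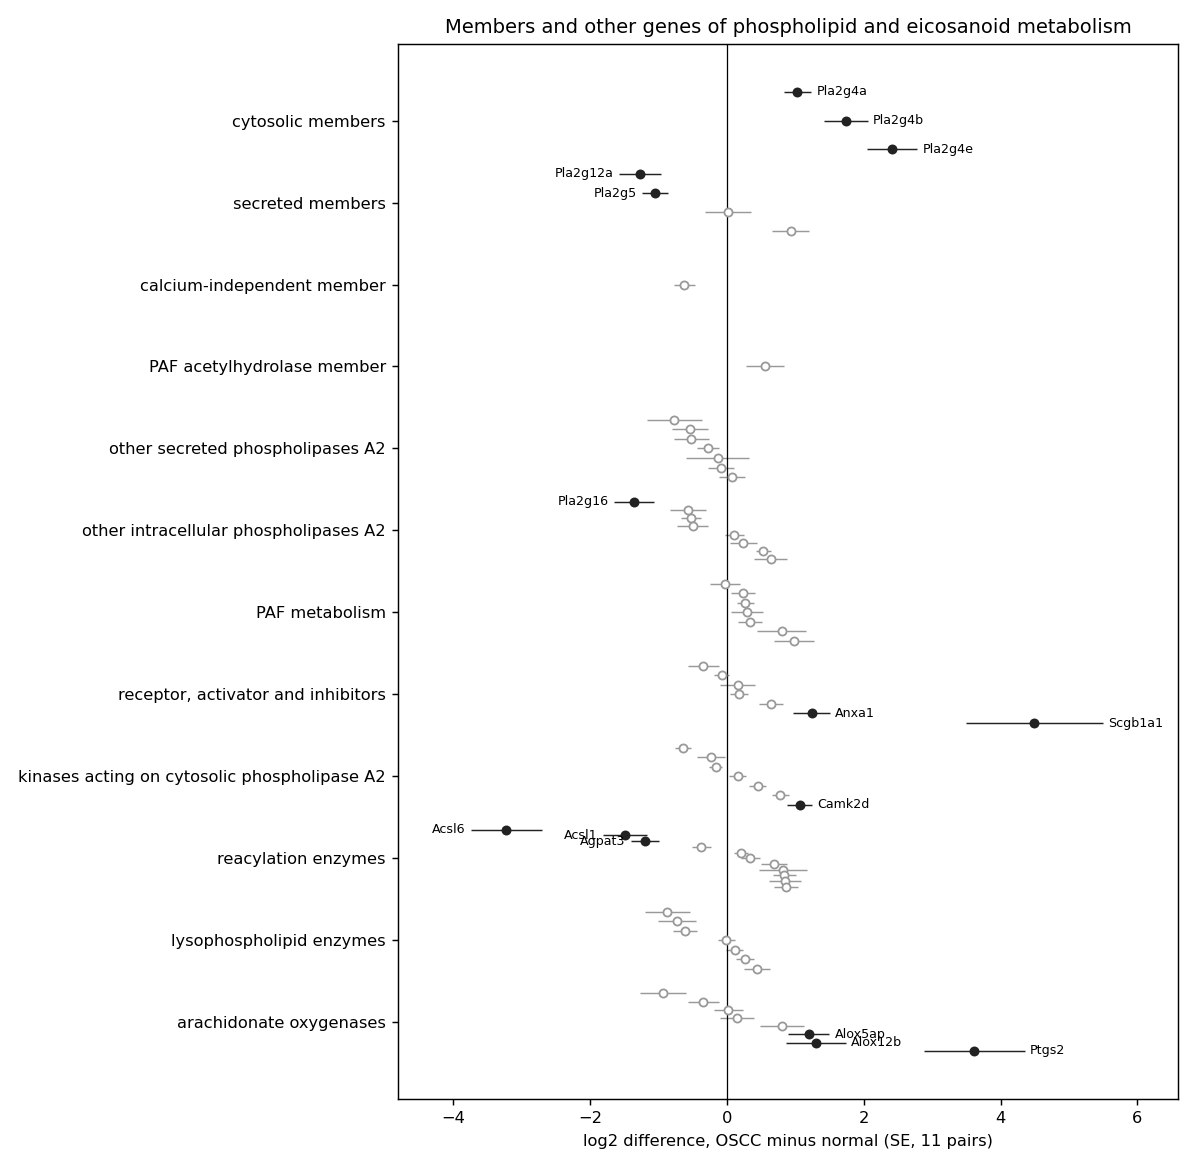
Log2 difference, OSCC minus normal (x axis, with SE over 11 pairs), of the 9 members and 62 other genes, grouped by list (y axis). Filled, named points were called and open points were not. All 3 genes of the cytosolic member list were called, but Pla2g4c and Pla2g4f, placed with the other intracellular genes, were not.

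For the 6 members well above background on all 22 arrays, the genes whose 11 within-rat differences ran most nearly parallel were looked up among 9554 other genes that were as bright. These correlations share the same arrays and rats and are descriptions. For Pla2g12a they were Hisppd2a, RGD1310348 and Ank2, with Pearson r of 0.990 to 0.993 over 11 rats, and all 3 were called lower. For Pla2g6 they were Pigp, Mapt and mrpl9 (r of 0.977 to 0.984 over 11 rats), and for Pla2g4a Dnajb11 and Mobkl1b (0.965 and 0.977, Dnajb11 the higher). For Pla2g4b they were Hes7, LOC678700 and Ahi1 (0.918 to 0.931), for Pla2g7 Prkar1a, Cdkn2d and Ap2m1 (0.943 to 0.946), and for Pla2g2a Pltp, Enpep and Rem1 (0.892 to 0.899). No member was among the 3 nearest of another, but Pla2g4e, Pla2g2e and Pla2g5 could not be. Those genes were not bright on every array and so were outside the search.

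For Pla2g4a and Pla2g4b, 2 of the 3 cytosolic genes that rose, the 250 bases before an annotated start are shown (RefSeq, GRCr8 build, gene strand, 5′ to 3′). Each window was searched on both strands for 5 short motifs, and the match is in capitals. The site of the stress-responsive AP-1 factors was taken as TGANTCA. The TATA box, which places the start of transcription in some promoters, was taken as TATAAA. The CCAAT box was searched by the letters of its name. The GC box, bound by Sp1-type factors in housekeeping promoters, was taken as GGGCGG. The E-box, bound by factors such as Myc, was taken as CACGTG. The windows are chr13:64572353-64572602 on the minus strand for Pla2g4a and chr3:127459023-127459272 on the plus strand for Pla2g4b. The Pla2g4b window lies inside that gene's annotated span (chr3:127458022-127467637), so it is not the sequence upstream of the whole gene.
Pla2g4a: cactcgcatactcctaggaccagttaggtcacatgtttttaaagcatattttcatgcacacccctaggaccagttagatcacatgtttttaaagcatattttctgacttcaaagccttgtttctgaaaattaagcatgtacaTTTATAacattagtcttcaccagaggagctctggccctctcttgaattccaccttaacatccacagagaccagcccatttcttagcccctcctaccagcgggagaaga
Pla2g4b: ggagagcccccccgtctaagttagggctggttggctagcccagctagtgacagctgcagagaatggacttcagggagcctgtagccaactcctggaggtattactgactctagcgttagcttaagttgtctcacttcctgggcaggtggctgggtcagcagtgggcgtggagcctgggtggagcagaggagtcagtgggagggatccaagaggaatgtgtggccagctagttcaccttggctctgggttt
The Pla2g4a window holds the TATA box letters on the opposite strand, which 12.9% of 33469 windows of this length hold on either strand. The Pla2g4b window holds none of the 5 motifs. The AP-1 letters (6.34% of windows), the CCAAT letters (34.0%), the GC box (30.5%) and the E-box (5.59%) were in neither window, which holds for these 2 windows alone. The G+C content was 42.4% for Pla2g4a and 57.6% for Pla2g4b, against a median of 51.2% over all windows.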

How the data were processed

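Total RNA of 11 OSCC and 11 adjacent normal tongue pieces was hybridized to 22 one-color Agilent arrays, 1 per piece. The intensity values were deposited as scanner output of Feature Extraction 9.5.3.1, in which the authors subtracted the local background and removed spatial trends. The deposited value table holds ratio values, the processed signal over the 75th percentile of its array, and served as an alternative. Control and outlier spots (0.975% of spots) were left out, spots of a probe averaged as log2, and the 75th percentile over 30367 probes subtracted. The paired fit (rat and tissue) used limma 3.58.1 in R 4.3.3 without a filter on dim probes, and was tested on simulated data over 30299 probes, where 92 of 100 probes with a log2 change of 2 were recovered. In that simulation 8 unchanged probes were called. It held no scan-day effect and no smaller change, so it gives no rate for differences near the 2-fold limit. A gene is represented by its brightest probe. The pairs come from the same animals by their labels, and deviations from the tissue means correlated by -0.213 to 0.242 within pairs. RNA from pieces of different rats makes separate samples, and the number of arrays limits the precision.

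The members and lists were chosen with earlier results of these data known. All 9 members are named, of each other list at most 3 called genes in each direction, and the 3 genes most like each member that was bright on every array, except 1 such gene that is not reported here. Promoter windows are shown for Pla2g4a and Pla2g4b, and the others are not reported here. Alternatives were quantile, median and other percentile scaling, normexp correction with an offset of 50, the authors' table, a filter for probes well above background on 11 arrays, the mean over probes of a symbol, scan day, slide, no pairing, fewer pairs and the methods' t-test. RefSeq's table lists 12 windows for 8 of the 9 members. Sequence of a genome in the files' build was not used here.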

Additional observations from a re-analysis of the deposited data

How the results depend on the processing

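Of 9 members, 5 were called (3 higher, 2 lower), and no called member changed direction under any alternative. With scan day as a further term 0 were called (0 higher, 0 lower), and of the other 62 listed genes 0 (0 higher, 0 lower) in place of 10 (6 higher, 4 lower). That fit called only 3 of all 30367 probes (0.00988%). At an unadjusted p below 0.05 (limma) it left 3 of 9 members and 11 of 62 listed genes, against 36.0% of all probes. With normexp correction 3 members were called (without Pla2g4a and Pla2g5), 1 of them lower, and 6 listed genes, 3 of them higher. Pla2g4a at 2.04-fold and Pla2g5 at 2.07-fold sit next to the fold limit, so 1 member was called lower with the percentile over bright probes and also within the pairs scanned on different days, an alternative chosen after seeing the data. Leaving out 1 rat gave 3 to 6 members called, 2 to 4 higher and 1 to 2 lower, with 8 to 14 listed genes, 4 to 8 higher and 4 to 6 lower, the fewest members without rat 11.

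Without rats 21, 22 and 24 the same 5 members were called and 18 of 62 listed genes, 10 higher and 8 lower, against 22.8% of all probes. In the 2 pairs scanned on the same day 6 members (Pla2g2e added) and 20 of 62 listed genes were called, 12 of the latter lower, against 43.7% of all probes. The standard error there was the same for every member, and Pla2g2e differed by -0.08 in rat 4 and 2.70 in rat 9. The settings for the listed genes were chosen after seeing the data. With no replicate block (no pairing by rat) the 5 calls were kept, and 5 members were called by the methods' t-test, both before and after Benjamini-Hochberg adjustment. Pla2g2a, never called, changed sign to -0.18 with median scaling, -0.007 with scan day, -0.0052 with slide as a block, -0.007 in the same-day pairs and -0.16 without rats 21, 22 and 24, and ranged from -0.17 to 0.23 with 1 rat left out.

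Cytosolic minus secreted, 2.07 in the main fit, stayed positive, from 1.47 with normexp correction to 2.54 without rats 21, 22 and 24. It was 1.90 to 2.38 with 1 rat left out, and 1.30 with Pla2g6 and Pla2g7 added to the classes. Median or other percentile scaling, the dim-probe filter, the mean over probes and dropping the pairing cannot move this gap. The median difference of all probes, -0.24, was -0.44 with median scaling and -0.03 with quantile normalization, and median scaling moves every member by about the same amount. The Pla2g5, Pla2g2e and Pla2g4e probes were well above background on 17, 18 and 19 of 22 arrays, which limits how firmly their differences can be read.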
